A study of Mus musculus with 4 samples.

Results

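Tight junction genes of the blood-testis barrier were followed in RNA of whole mouse testes, taken from males on postnatal day 9, with 1 control array set against 3 Dmrt1 knockout arrays. The genes were occludin (Ocln), 3 claudins (Cldn11, Cldn3 and Cldn1), 2 zonula occludens scaffolds (Tjp1 and Tjp3) and 3 junctional adhesion molecules (F11r, Jam2 and Jam3). They were chosen by name, with earlier results of these data known, and found through the RefSeq accessions on the array. Each of the 9 genes was represented by 1 transcript, out of 25631 transcripts in all and 17277 genes with a symbol. The control was labelled Cre-negative, the knockouts Cre-positive, and DHH-cre is named for both, so the deletion was driven by Cre from the Desert hedgehog gene, which Sertoli cells express. The labels give the targeted gene, Dmrt1, but not the form of its targeted allele, the strain, the number of animals behind an array or whether RNA was pooled. If the 3 knockout arrays share animals, the p-values measure technical spread only.

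Tight junctions seal the space between neighbouring Sertoli cells and so form much of the blood-testis barrier, which separates meiotic germ cells from the blood. Occludin and the claudins are 4-pass membrane proteins whose strands make the seal. Junctional adhesion molecules are immunoglobulin-type proteins of the same contacts, and the zonula occludens proteins tie the strands to actin. In mice the barrier closes during the first wave of spermatogenesis, later than the age sampled here, and loss of claudin-11 in mice leaves the testis without tight junction strands between Sertoli cells and causes sterility.

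The promoter windows of occludin and the 3 claudins are shown because both genes that fell, Ocln and Cldn11, lie in this group, beside Cldn3 and Cldn1, which did not pass. Each holds the 250 bases before the annotated start, from RefSeq on GRCm38.p6, written 5′ to 3′ on the gene's strand, and for Ocln the more upstream of 2 annotated starts was taken. Capitals mark matches on either strand to a CCAAT box (CCAAT) or a GC box (GGGCGG). The windows are chr13:100552719-100552968 on the minus strand for Ocln, chr3:31149670-31149919 on the plus strand for Cldn11, chr5:134985964-134986213 on the plus strand for Cldn3 and chr16:26371840-26372089 on the minus strand for Cldn1.
Ocln: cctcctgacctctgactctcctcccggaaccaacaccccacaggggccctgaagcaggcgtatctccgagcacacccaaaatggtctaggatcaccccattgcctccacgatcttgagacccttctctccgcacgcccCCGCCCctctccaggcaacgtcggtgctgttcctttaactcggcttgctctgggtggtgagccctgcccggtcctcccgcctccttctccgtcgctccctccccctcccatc
Cldn11: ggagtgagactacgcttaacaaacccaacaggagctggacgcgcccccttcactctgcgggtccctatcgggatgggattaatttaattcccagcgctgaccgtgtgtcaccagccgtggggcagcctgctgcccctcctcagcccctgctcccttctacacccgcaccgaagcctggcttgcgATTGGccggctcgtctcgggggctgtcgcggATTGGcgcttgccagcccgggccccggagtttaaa
Cldn3: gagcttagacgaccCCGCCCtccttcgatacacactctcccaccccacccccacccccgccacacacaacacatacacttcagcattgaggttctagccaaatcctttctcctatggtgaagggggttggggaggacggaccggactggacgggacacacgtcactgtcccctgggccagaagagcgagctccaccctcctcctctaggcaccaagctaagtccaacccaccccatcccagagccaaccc
Cldn1: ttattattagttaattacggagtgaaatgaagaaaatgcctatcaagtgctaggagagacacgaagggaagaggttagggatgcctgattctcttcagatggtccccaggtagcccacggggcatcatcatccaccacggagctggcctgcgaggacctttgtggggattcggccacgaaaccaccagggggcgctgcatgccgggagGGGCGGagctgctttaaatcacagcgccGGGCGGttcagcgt

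The Cldn11 window held 2 CCAAT boxes, whose first bases lay 66 and 35 bases before the start, and no GC box. The Ocln window held 1 GC box at 112 bases before the start, Cldn3 held 1 at 236 bases, and Cldn1 held 2 at 42 and 14 bases, and the windows printed for these 3 genes held no CCAAT box. The window of the other annotated Ocln start, not printed here, held a CCAAT box at 25 bases and a GC box at 43 bases before that start. A CCAAT box stood in 33.8% and a GC box in 32.7% of all 32851 promoter windows of this length. The letters ACAATGT, a core bound by DM domain proteins such as DMRT1, were in none of the 4 windows and in 2.56% of all windows. The SOX core ACAAT, which lies inside ACAATGT, and the GATA core GATAA were also in none of the 4, against 27.7% and 22.6% of all windows. The G and C content was 64.0% for Ocln, 63.6% for Cldn11, 60.8% for Cldn3 and 55.6% for Cldn1, against a median of 52.4% over all windows. The table held windows for 7 of the 9 genes, without Jam2 and Jam3.

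Ocln fell 7.36-fold and Cldn11 fell 3.29-fold in the knockout arrays, and no other gene of the 9 passed the test. The test was limma's moderated test on log2 intensity, two-sided, with Benjamini-Hochberg adjustment over all 25631 transcripts and a threshold of 0.05. So 2 of the 9 genes were lower and 0 higher, against 0.499% of all transcripts lower, 0.156% higher and 0.655% in either direction. The same 2 genes were at least 2-fold below the control on each knockout array, against 0.753% of all transcripts, and 0 were at least 2-fold above it on each, against 0.398%. At an unadjusted p under 0.05 the count was 4 of 9, against 6.42% of all transcripts. All 3 knockout arrays lay below the control for 5 of the 9 genes and above it for 2, against 24.1% and 25.6% of all transcripts. Because the 9 genes were chosen with earlier results of these data known, these counts are not an independent comparison with all transcripts. With 1 control array the spread came from the knockouts and the fit's prior, so any peculiarity of that array counts as a difference.

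**Figure D1:**
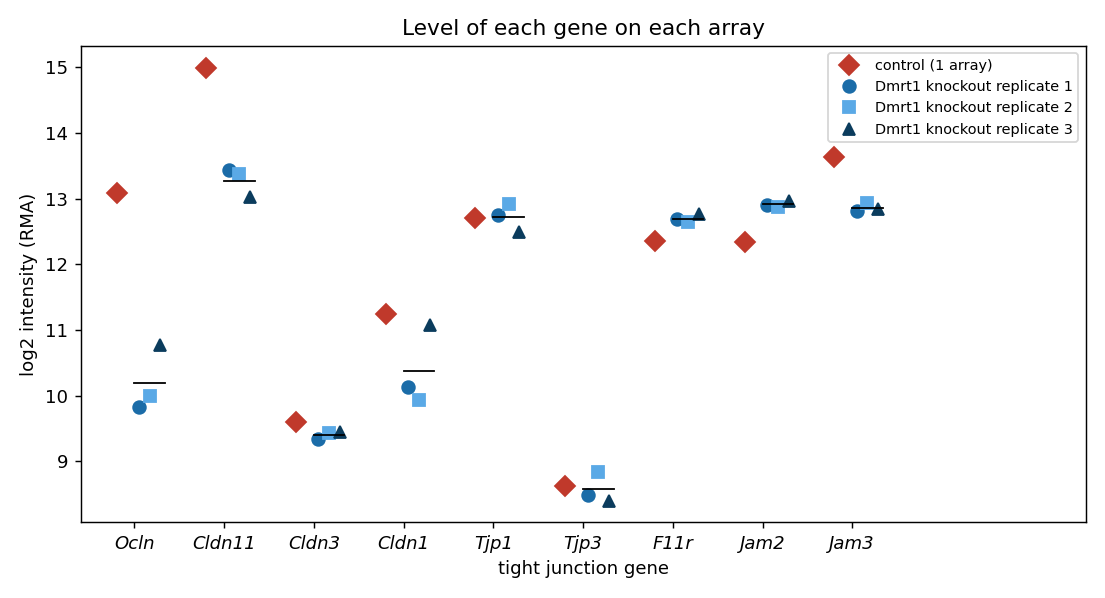
Log2 intensity of each tight junction gene on each of the 4 arrays, with the control as a red diamond, knockout replicates 1 to 3 as blue symbols and the knockout mean as a bar. Ocln and Cldn11 lie far below the control on every knockout array, and the groups overlap only for Tjp1 and Tjp3.

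Occludin read 8663 intensity units on the control array against 912, 1025 and 1742 on knockout replicates 1, 2 and 3. Every knockout array lay well below the control, and replicate 3 was the highest of them. On the log2 scale the knockouts averaged 10.20 ± 0.50 (SD, n = 3) against 13.08 for the control, a difference of -2.88 ± 0.36 (SE, 1 control and 3 knockout arrays; limma, adjusted p = 0.00495). By array the fold below the control was 9.50, 8.45 and 4.97. Among all 25631 transcripts, the Ocln difference ranked 31st from the lowest. Its 95% interval ran from -3.68 to -2.08, and leaving out 1 knockout array at a time gave -3.16 to -2.70.

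Claudin-11, the main claudin of Sertoli cells, read 32655 intensity units on the control array against 11079, 10582 and 8303 on knockout replicates 1, 2 and 3. All 3 knockouts were again far below the control, but here replicate 3 was the lowest. The knockouts averaged 13.27 ± 0.22 on the log2 scale (SD, n = 3) against 15.00 for the control, a difference of -1.72 ± 0.28 (SE; limma, adjusted p = 0.0211). It ranked 102nd from the lowest of all transcripts, with a 95% interval of -2.33 to -1.11. That interval overlaps the one of Ocln, and whether the pair changed by unequal amounts was not tested. The order of the knockout arrays was reversed between Ocln and Cldn11, with folds below the control of 2.95, 3.09 and 3.93 for Cldn11.

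Claudin-3, a claudin of newly forming barrier junctions, read 779 intensity units on the control array against 651, 692 and 698 on the 3 knockout arrays. The 3 knockout values lay close together just below the control. Its difference was -0.20 ± 0.25 on the log2 scale (SE; limma, adjusted p = 0.999), with a 95% interval of -0.76 to 0.36 that does not overlap the interval of Cldn11. Claudin-1, a claudin found in many epithelia, read 2418 intensity units on the control array against 1128, 981 and 2153 on knockout replicates 1, 2 and 3. Replicates 1 and 2 were clearly lower, whereas replicate 3 stood close to the control. The difference was -0.86 ± 0.40 (SE; limma, adjusted p = 0.803), and the SD among the knockouts, 0.61, was the widest of the 9 genes. Without replicate 3 the Cldn1 difference was -1.20 ± 0.27, which did not pass either. It was -0.63 ± 0.37 without replicate 2 and -0.73 ± 0.41 without replicate 1.

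**Figure D2:**
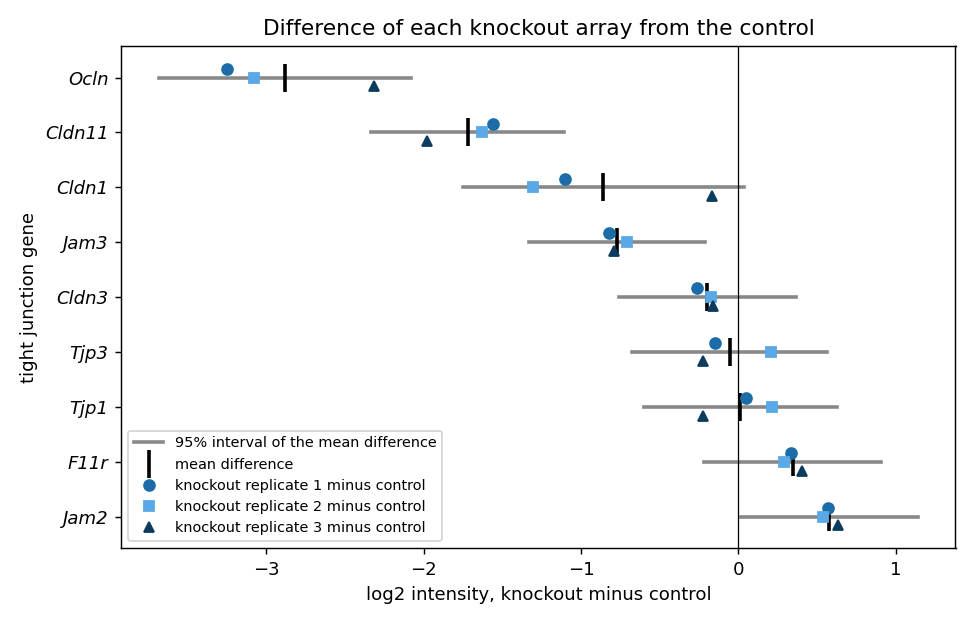
Log2 intensity of each knockout array minus the control for the 9 genes (symbols), with the mean difference (black bar) and its 95% interval from limma (grey line). The intervals of Ocln, Cldn11 and Jam3 lie below 0 and that of Jam2 above it, and replicate 3 stands apart from the other knockouts for Ocln and Cldn1.

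The junctional adhesion molecules did not share 1 direction, and none passed the test. Jam3, which encodes JAM-C of Sertoli cells and spermatids, read 12715 intensity units on the control array against 7211, 7786 and 7370 on the 3 knockout arrays. Jam2, which encodes JAM-B, a binding partner of JAM-C, had 5175 in the control and 7671, 7525 and 8019 in the knockouts. For both genes the knockout arrays agreed closely and did not overlap the control, lower for Jam3 and higher for Jam2. The difference was -0.77 ± 0.25 (SE; limma, adjusted p = 0.448, unadjusted p = 0.0121) for Jam3. For Jam2 it was 0.58 ± 0.25 (SE; limma, adjusted p = 0.742, unadjusted p = 0.0437). Their 95% intervals were -1.33 to -0.21 for Jam3 and 0.02 to 1.14 for Jam2.

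F11r, which encodes JAM-A of epithelial and endothelial junctions, read 5228 intensity units on the control array against 6608, 6392 and 6936 on the 3 knockout arrays. All 3 knockouts were somewhat higher, with a difference of 0.35 ± 0.25 (SE; limma, adjusted p = 0.979) and a 95% interval of -0.22 to 0.91. The SD among the knockouts was 0.06, 0.05 and 0.06 on the log2 scale for F11r, Jam2 and Jam3, against a median of 0.21 over all transcripts.

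The scaffold genes showed overlapping groups. Tjp1, which encodes ZO-1, read 6698 intensity units on the control array against 6921, 7765 and 5744 on the 3 knockout arrays, so the control lay inside the knockout range. Its difference was 0.01 ± 0.27 (SE; limma, adjusted p = 1.00), with a 95% interval of -0.60 to 0.63. Tjp3, which encodes ZO-3, had 396 in the control and 357, 458 and 339 in the knockouts, again on both sides of the control. The Tjp3 difference was -0.05 ± 0.28 (SE; limma, adjusted p = 0.999), with a 95% interval of -0.67 to 0.56. Tjp3 and Cldn3 were dim on these arrays, and no background values were used here, so it is not known whether they lie above background.

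**Figure D3:**
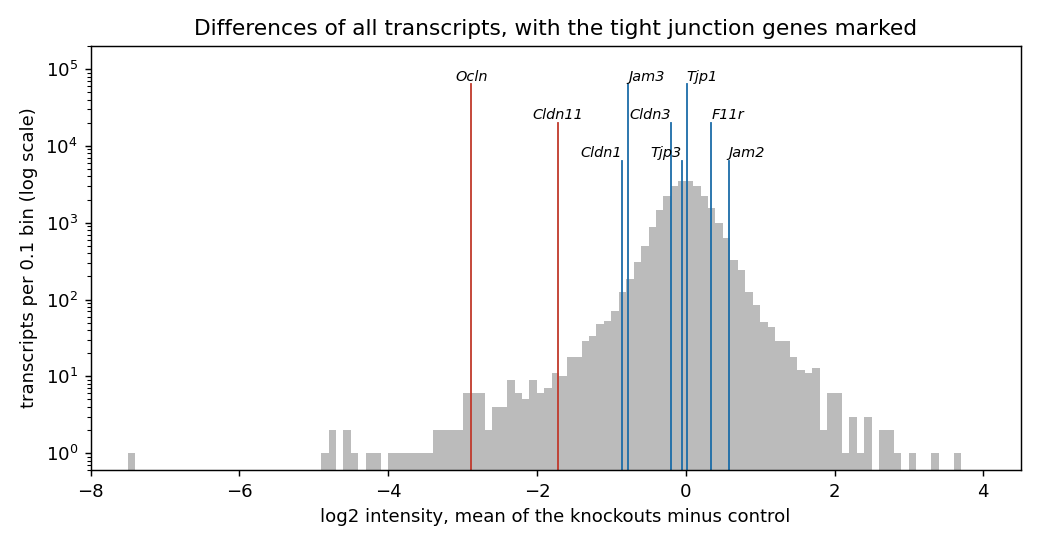
Number of transcripts per 0.1 step of the log2 difference between the knockout mean and the control (log count axis), with the 9 tight junction genes as vertical lines, red for the 2 past the test. Ocln and Cldn11 lie in the lower tail, and Cldn3, Tjp3, Tjp1 and F11r lie in the bulk of the distribution.

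The median difference of the 9 genes was -0.20, and the median over all transcripts was 0.00, with an interquartile range of -0.19 to 0.20. By knockout array the 9-gene median was -0.26, -0.17 and -0.22, and the median over all transcripts on the same arrays was 0.00, 0.01 and 0.00. The smallest difference that passed the test anywhere on the array was 1.35 in size. The sizes of the 7 genes that did not pass lay below that, from 0.01 for Tjp1 to 0.86 for Cldn1.

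Dmrt1 itself, the gene targeted in the knockouts, read 18252 intensity units on the control array against 9623, 10633 and 12959 on knockout replicates 1, 2 and 3. It was lower on all 3 but did not pass the test (difference -0.73 ± 0.27, SE; limma, adjusted p = 0.586). Replicate 3 was the knockout closest to the control for Dmrt1, as it was for Ocln, Cldn1 and Cldn3. The closest was replicate 1 for Cldn11, Tjp1 and Tjp3 and replicate 2 for F11r, Jam2 and Jam3. Where the Dmrt1 probes lie relative to the deletion is not given in the sources used here, and germ cells express Dmrt1 as well.

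In whole-testis RNA, fewer cells of a type and less RNA per cell cannot be told apart, so marker genes are given beside these results. The tissue markers Amh of Sertoli cells and Ddx4 of germ cells had log2 levels of 12.60 and 14.39 in the control. Of 23 measured Sertoli markers, 2 were lower (Cst9, a cystatin, and Defb36, a beta defensin) and 1 higher (Krt18, a keratin), with a median of -0.09. Of all transcripts, 0.499% were lower and 0.156% higher. By limma 7 of the 23 had an unadjusted p under 0.05, against 6.42% of all transcripts. All 3 knockout arrays lay below the control for 10 of these markers and above it for 6. Over all transcripts these shares were 24.1% and 25.6%. The summed intensity of the 23 markers was 267431 in the control and 223874 to 239995 in the knockouts. Without these 3 called genes, the other 20 markers gave 229075 in the control against 217310, 222809 and 229095 on knockout replicates 1, 2 and 3. This sum was added after the data were seen. It left out genes by their test result, so it cannot show the level of Sertoli cell RNA. Vim, among the 20, read 37239 intensity units on the control array against 33046, 34019 and 46832 on the 3 knockout arrays. Others of the 20 moved either way. Clu read 41020 against 27334, 25758 and 26850, and Tsx was at -0.98 ± 0.28 (SE). Inha read 13371 against 20252, 23316 and 18997. Of the 23 markers, 13 had differences below 0 and 10 above. Of 13 endothelial markers, 0 passed by limma, 0 had an unadjusted p under 0.05, and the median was 0.11. Their summed intensity was 32142 in the control and 36519 to 37551 in the knockouts, beside the higher values of Jam2 and F11r. Bright genes weigh most in such a sum, and 6 of the 13 had differences below 0 and 7 above. The mean log2 level of the 13 was 10.56 for the control and 10.67, 10.56 and 10.68 for knockout replicates 1, 2 and 3. The part of these markers in the results was not tested.

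Markers of ducts and rete, another epithelium with tight junctions, had a summed intensity of 28889 in the control and of 24879 to 29886 in the knockouts. Most of this sum came from Epcam and Cdh1, so it says little about the dimmer duct genes. Epcam read 19331 intensity units on the control array against 15489, 13157 and 14588 on the 3 knockout arrays. Cdh1, also counted among the barrier junction genes, read 5008 against 7106, 5898 and 6504. By limma 0 of the 12 passed, 0 had an unadjusted p under 0.05, and the median was 0.34. The epididymal Lcn5 was the dimmest by its mean log2 level over the 4 arrays, 5.79. Replicate 1 stood apart in this list, whose mean log2 level was 8.82 for the control and 9.59, 8.89 and 8.85 for knockout replicates 1, 2 and 3. Spink8, a serine peptidase inhibitor, read 77.4 intensity units on the control array against 1039, 51.5 and 65.1 on the 3 knockout arrays. Crisp1, a secreted protein of the epididymis, read 43.0 against 339, 49.9 and 39.4, so both were high on replicate 1 alone. Germ cell markers summed to 166905 in the control and 169904 to 204381 in the knockouts (0 of 16 passed, 1 at an unadjusted p under 0.05, median 0.09). Leydig cell markers summed to 96956 and to 91845 to 140763 (0 of 9 passed, 1 at an unadjusted p under 0.05, median 0.34), and peritubular myoid markers to 36010 and to 31852 to 35878 (0 of 6 passed, 2 at an unadjusted p under 0.05, median -0.09). Macrophage markers summed to 18053 and to 22007 to 26610, with all 9 above 0 (0 passed, 2 at an unadjusted p under 0.05, median 0.43). Over all transcripts 0.655% passed and 6.42% had an unadjusted p under 0.05.

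The other claudins did not pass the test. By limma 0 of 18 measured claudin genes passed, with 1 at an unadjusted p under 0.05, 8 below 0 and 10 above, and a median of 0.07. Over all transcripts 0.655% passed and 6.42% had an unadjusted p under 0.05. Cldn7, a claudin of simple epithelia, had the smallest p and log2 levels of 9.28 for the control against 8.75, 8.23 and 8.00 for knockout replicates 1 to 3, a difference of -0.96 ± 0.32 (SE; limma, adjusted p = 0.465). Cldn13 was at -0.56 ± 0.27. Cldn17 was at 0.67 ± 0.40, and at 1.01 without replicate 3, the array on which it read 146 intensity units against 147 in the control. Without replicate 2 it was at 0.45. Cldn5, the claudin of endothelium and of Sertoli cells, was at -0.01 ± 0.25. A pair of epithelial claudins was high on replicate 1 alone, the array on which the duct markers Spink8 and Crisp1 were high. Cldn8 read 36.4 intensity units on the control array against 151, 31.7 and 43.8 on the 3 knockout arrays. Cldn2 read 165 against 521, 147 and 211, and the part of the duct markers in these values was not tested.

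Popdc3 was the 1 gene that fell among 12 other membrane proteins listed with tight junctions, and it is a Popeye domain protein known mainly from heart and muscle rather than a strand protein. Its log2 level was 10.20 in the control and 8.56, 8.84 and 8.82 in the knockouts, all lower, a difference of -1.46 ± 0.26 (SE; limma, adjusted p = 0.0400). It did not pass without replicate 1 (adjusted p = 0.0731), with an intensity trend in the variance prior (0.0569) or with a pseudocount of 50 (0.0805), and the adjusted p over all its alternatives ran from 0.0259 to 0.0805. Igsf11, an immunoglobulin-type adhesion molecule of Sertoli and germ cells, read 7790 intensity units on the control array against 3254, 3531 and 4096 on the 3 knockout arrays. All 3 lay below the control, a difference of -1.11 ± 0.26 (SE; limma, adjusted p = 0.155), and Igsf11 did not pass. Lsr, a protein of tricellular contacts, was at -0.39 ± 0.26 and Clmp, a relative of the coxsackie and adenovirus receptor, at 0.56 ± 0.38. Clmp was at 0.27 without replicate 1, its highest array, and at 0.80 without replicate 3. The median of this list was -0.17, with 2 of 12 at an unadjusted p under 0.05, against 6.42% of all transcripts. The 1 of 12 that passed as lower stands against 0.499% of all transcripts.

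**Figure D4:**
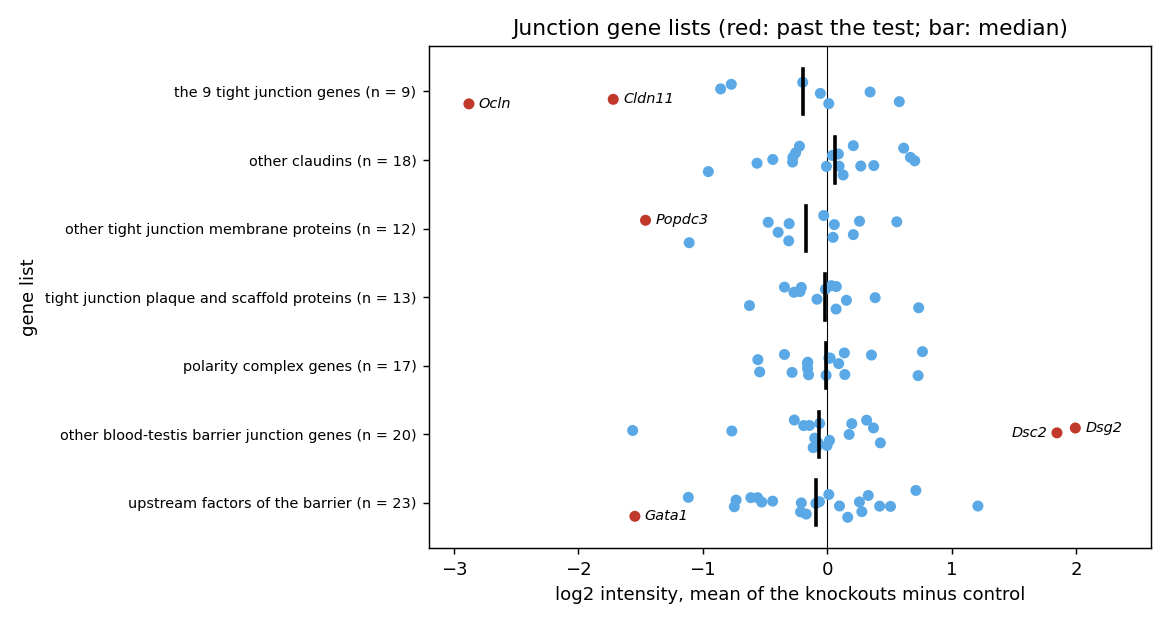
Log2 difference between the knockout mean and the control for each gene (points) of the 9 tight junction genes and of 6 lists of related junction genes and regulators, with list medians as bars and genes past the test in red. The medians lie between -0.20 and 0.07, and the red genes are Ocln, Cldn11, Popdc3 and Gata1 below 0 and Dsg2 and Dsc2 above it.

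Scaffold and polarity genes beyond Tjp1 and Tjp3 did not pass. Of 13 plaque and scaffold genes 0 passed by limma, 1 had an unadjusted p under 0.05 (against 6.42% of all transcripts), and the median was -0.01. That gene was Cgnl1, which encodes paracingulin, at 0.74 ± 0.26 (SE; limma, adjusted p = 0.522), with Amot, an angiomotin, at -0.62 ± 0.29 and Rab13, a small GTPase of junction traffic, at 0.39 ± 0.30. Of 17 polarity genes 0 passed by limma, 0 had an unadjusted p under 0.05, and the median was -0.01. Prkcz, an atypical protein kinase C, was at 0.77 ± 0.36, and at 0.49 without replicate 3, its highest array. Lin7a was at 0.73 ± 0.34 and Llgl1, a lethal giant larvae homolog, at -0.54 ± 0.25.

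Among 20 genes of the other junctions that share the barrier, 0 passed the test as lower and 2 as higher. The 2 were desmosomal cadherins, and of all transcripts 0.499% passed as lower and 0.156% as higher. Dsg2, desmoglein-2, had log2 levels of 8.56 for the control against 10.57, 10.53 and 10.56 for knockout replicates 1 to 3, a rise of 3.99-fold (SE of the log2 difference 0.25; limma, adjusted p = 0.00496). Dsc2, desmocollin-2, had 5.49 in the control and 7.15, 7.23 and 7.62 in the knockouts, a difference of 1.85 ± 0.28 (SE; limma, adjusted p = 0.0160). Both genes moved in the direction opposite to Ocln and Cldn11, and Dsc2, which was dim in the control, did not pass with a pseudocount of 50, which lowered its difference to 1.16 (adjusted p = 0.167; over its alternatives the adjusted p ran from 0.00564 to 0.167). Gja1, connexin 43 of gap junctions, was at -1.56 ± 0.39 and passed only without replicate 2, among the alternatives run (adjusted p = 0.0484; over its alternatives the adjusted p ran from 0.0484 to 0.349). Its intensity was 11200 on the control array against 2396, 4665 and 4864 on the 3 knockout arrays. Like Ocln and Cldn11, Gja1 was thus at least 2-fold below the control on each knockout array. Vcl, the actin linker vinculin, was at -0.77 ± 0.29 and Cdh1, E-cadherin, at 0.37 ± 0.26. The list's median was -0.07, with 4 of 20 at an unadjusted p under 0.05, against 6.42% of all transcripts.

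Gata1 was the 1 gene that fell among 23 factors tied to the barrier in mouse mutants or Sertoli cell culture, against 0.499% of all transcripts. GATA1 is a transcription factor found in Sertoli cells and in the red blood cell lineage. It had log2 levels of 14.99 for the control against 13.51, 13.35 and 13.48 for knockout replicates 1 to 3, a difference of -1.55 ± 0.25 (SE; limma, adjusted p = 0.0248). Fgf1, a growth factor, was at 1.21 ± 0.26 (adjusted p = 0.0954), Fshr, the FSH receptor, at -1.12 ± 0.32 and Rara, a retinoic acid receptor, at -0.75 ± 0.25, and these 3 did not pass. Of the 23, 6 had an unadjusted p under 0.05, against 6.42% of all transcripts, and the median was -0.09. Dmrt1, the targeted gene, is among the 23 and among these 6 (limma, unadjusted p = 0.0236).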

How the data were processed

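RNA from whole testes was hybridised in 1 colour (Cy3) to a NimbleGen 60mer expression array, per the labels' protocols. The authors deposited a linear intensity for each RefSeq transcript on each array. Per the submitters' processing notes, RMA was used to make it. This method corrects background, gives arrays a common distribution and summarises probes, which can compress large folds. Its version and the probes behind each transcript are not given in the sources used here. Intensities ran from 23.9 to 65156 and array medians from 1005 to 1011. The number of arrays, 1 control and 3 knockouts, limits the precision.

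Symbols came from matching accessions to a RefSeq table of GRCm38.p6, which named 17780 transcripts (69.4%). Log2 was taken with no pseudocount and no filter, so all 9 genes entered the fit. Every transcript was fitted by lmFit and eBayes of limma 3.58.1, run in R 4.3.3, as knockout minus control, with 2 residual degrees of freedom and 7.97 added by the prior. Ranks and medians are over all 25631 transcripts. For lists, the transcript with the highest mean stood for its gene. The test was checked on simulated data. The members and lists (junction lists and markers of Sertoli cells, endothelium, ducts and rete, germ cells, Leydig cells, peritubular myoid cells and macrophages) were chosen with earlier results of these data known. The text names the 9 members, Dmrt1, list genes past the test and up to 3 further genes per list with the smallest p. The marker genes named, Cldn2, Cldn5 and Cldn8 were added after their values were seen. The alternatives dropped each knockout array in turn, repeated the normalisation or centred the arrays, removed the dimmest 0.25 of transcripts, changed the variance prior or threshold, or added a pseudocount of 50.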

Additional observations from a re-analysis of the deposited data

How the results depend on the processing

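The count of 2 tight junction genes past the test, Ocln and Cldn11, was the same under all 10 alternatives. Of the 32 single genes followed through the alternatives, 26 kept their direction and their side of the threshold wherever they were tested. With 1 knockout array left out, Tjp1 ran from -0.087 to 0.13, with the sign changed without replicate 1 and without replicate 2. Tjp3 ran from -0.19 to 0.031, with the sign changed without replicate 3. All of these values were smaller than their standard errors. The count of 1 among 49 other tight junction transcripts, Popdc3, became 0 with an intensity trend in the variance prior and with a pseudocount of 50, and ran from 0 to 1 when 1 knockout array was left out. Without replicate 1 it was 0. The count over all transcripts was 168, and 99 with a pseudocount of 50, which shrinks the differences of dim transcripts. Gja1 passed without replicate 2, and Fgf1 passed at the threshold of 0.1. No paired analysis was possible because there was only 1 control array and the labels give no pairing. The lone control entered every alternative, so its own spread was not varied.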

Other observations

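Genes next to the 9 on the chromosomes did not pass the test. Of 16 measured nearest protein-coding neighbours, by annotation order on GRCm38.p6, 0 passed by limma and 2 had an unadjusted p under 0.05, against 6.42% of all transcripts. Their differences ran from -0.81 to 0.51 on the log2 scale. Ocln lies between Gtf2h2, a subunit of a general transcription factor, and Marveld2, which encodes tricellulin, the occludin relative of tricellular contacts. Gtf2h2 was at -0.04 ± 0.25 (SE) and Marveld2 at -0.47 ± 0.42 (SE). Marveld2 had log2 levels of 10.89 for the control against 9.86, 10.25 and 11.14 for knockout replicates 1 to 3, lower in the first pair and slightly higher in replicate 3. Cldn11 lies between Skil, a Smad co-repressor, at -0.15 ± 0.27 (SE), and Slc7a14, a transporter gene, at 0.32 ± 0.26 (SE). Cldn3 lies beside Cldn4, at 0.09 ± 0.26 (SE), and Cldn1 beside Cldn16, at -0.22 ± 0.27 (SE).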
